A study of Rattus norvegicus with 16 samples.

Results

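The collagen genes are the genes of the chains that make up the collagen family, and 25 of them were measured among the 14324 genes named on the arrays. Every gene whose symbol is Col, a type number, the letter a and a chain number was taken, with the probe set of the highest mean where a gene had several, as only Col6a4 did. All 25 lay at or above the filter on low values, a mean log2 intensity of 5.66 that left 11796 genes to test. By class, 10 were fibrillar collagens, 3 were basement membrane collagens and 12 belonged to other classes. The classes are incomplete, because 19 of the 44 collagen symbols in the RefSeq gene table had no named probe set here, among them Col4a2, Col4a5, Col4a6, Col6a1, Col6a2, Col6a3, Col15a1 and Col18a1. The basement membrane class therefore rests on 3 chains of type IV.

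The study asked how exposure to genistein, vinclozolin or both before and after birth affects the rat mammary gland. Genistein is a soy phytoestrogen, and vinclozolin is a fungicide with anti-androgenic activity. Wistar Han dams were gavaged daily from gestational day 1 to weaning on postnatal day (PND) 21, with genistein, vinclozolin or their combination (the mixture) at 1 mg/kg, while the control dams are labelled untreated. Their female offspring were killed on PND35, around puberty, or on PND50. Each of the 8 groups (control, genistein, vinclozolin and mixture at either age) had 2 Affymetrix arrays, each carrying a pool of RNA from 5 individually extracted mammary glands. The labels give groups of 15 dams, a draw of 1 female per litter and 20 female offspring per treatment, all on a phytoestrogen-free diet. Since 15 litters cannot give 20 females at 1 each, some litters may have been used again, and which pools share litters was not stated. The exposed animals thus received the agents through their mothers only, and each pool hides the spread between its 5 animals.

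Collagens are triple helices of chains built from a short repeat that begins with glycine. Fibrillar collagens, chiefly types I, III and V in soft connective tissue, assemble into the fibrils that give stroma its strength, while type IV chains form the sheet-like network of the basement membrane beneath epithelium and around fat and muscle cells and vessels. Other classes decorate fibrils (the fibril-associated collagens), anchor membranes, form short-chain networks or span the cell membrane. In the mammary gland, ducts grow into a fat pad whose collagen-rich stroma is remodelled as they branch.

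Markers of the labelled tissue were present in all 16 pools: Elf5, a luminal transcription factor, lay at or above 9.59 on the log2 scale, the keratin gene Krt8 at or above 9.65, and the milk protein gene Csn3 at or above 11.09. The fat hormone gene Adipoq lay at or above 12.46, and Vim, a mesenchymal filament gene, at or above 13.14. Some pools stood apart through genes of other tissues. A score for a marker list is the mean over its genes of the log2 value minus that gene's mean over the 16 pools. The skeletal muscle score ran from -0.10 to 2.10 at PND35 and from -1.71 to 1.15 at PND50, and was highest in mixture PND35 replicate 2. The hair and epidermis score was 2.28 and 1.84 in both vinclozolin pools at PND35 and at or below -0.18 in the other 14. Because these are bulk samples, fewer cells of a type and less RNA per cell cannot be told apart. The p-values measure only the spread between pools, and 2 arrays a group limit their precision.

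Promoters are shown for 4 collagens whose age change is described here, 1 that lies in type I fibrils, 1 in the basement membrane and 2 that span the membrane. RefSeq windows from 250 bases before to 50 after the start, on the rat assembly GRCr8, matched 20 of the 25 members. They are given 5′ to 3′ in the direction of the gene, and capitals mark the letters CCAAT (the CCAAT box), TATAAA (the TATA box) and GGGCGG (a GC box bound by Sp1) on either strand.
Col1a2, chr4:33518307-33518606, plus strand: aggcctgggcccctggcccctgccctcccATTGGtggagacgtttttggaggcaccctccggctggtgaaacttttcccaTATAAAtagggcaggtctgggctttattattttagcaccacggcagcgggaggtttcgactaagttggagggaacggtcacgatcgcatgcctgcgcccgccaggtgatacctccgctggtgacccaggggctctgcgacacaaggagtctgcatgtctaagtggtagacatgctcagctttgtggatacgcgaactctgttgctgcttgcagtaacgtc
Col4a1, chr16:84885347-84885646, plus strand: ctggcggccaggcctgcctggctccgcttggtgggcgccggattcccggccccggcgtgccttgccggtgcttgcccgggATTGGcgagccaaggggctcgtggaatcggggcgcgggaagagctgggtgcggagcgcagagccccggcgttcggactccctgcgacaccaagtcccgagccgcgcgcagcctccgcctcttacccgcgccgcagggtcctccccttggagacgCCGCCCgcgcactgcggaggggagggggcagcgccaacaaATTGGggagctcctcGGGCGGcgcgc
Col13a1, chr20:30466751-30467050, minus strand: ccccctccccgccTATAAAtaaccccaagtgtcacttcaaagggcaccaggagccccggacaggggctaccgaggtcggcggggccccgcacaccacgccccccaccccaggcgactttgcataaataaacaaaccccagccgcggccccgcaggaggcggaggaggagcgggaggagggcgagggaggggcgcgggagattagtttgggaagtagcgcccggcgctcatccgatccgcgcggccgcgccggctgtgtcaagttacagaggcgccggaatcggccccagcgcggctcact
Col17a1, chr1:256518808-256519107, minus strand: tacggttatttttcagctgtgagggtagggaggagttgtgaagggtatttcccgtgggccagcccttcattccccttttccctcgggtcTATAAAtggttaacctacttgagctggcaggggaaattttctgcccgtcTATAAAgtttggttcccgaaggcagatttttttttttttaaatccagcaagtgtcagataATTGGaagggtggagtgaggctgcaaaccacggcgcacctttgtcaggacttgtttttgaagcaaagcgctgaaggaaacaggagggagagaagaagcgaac
These windows differ in composition as well as in motifs. G and C made up 75.0% of the Col4a1 window and 68.7% of the Col13a1 window, but 57.0% of that of Col1a2 and 47.3% of that of Col17a1, against a median of 52.3% over all 27457 RefSeq rat promoters of the same length. TATAAA stood once in the Col1a2 window, at -170 from the start, once in that of Col13a1, at -237, and at -161 and -112 in that of Col17a1. The Col4a1 window held none, but held CCAAT on the opposite strand at -170 and 24 and GGGCGG on either strand at -16 and 39. CCAAT also stood on the opposite strand at -221 in the Col1a2 window and at -52 in that of Col17a1. Of the 20 collagen windows, 11 held GGGCGG, 7 held CCAAT, 4 held TATAAA and 0 held TGANTCA, each searched on both strands. The shares of all promoters that hold them were 34.9%, 37.7%, 14.3% and 7.33%. No motif overlapped another in the 4 windows shown, and a match is a description of the letters only. Some members also share a place: Col4a1 and Col4a2 start 77 bases apart on opposite strands of chromosome 16, Col4a3 and Col4a4 start 413 bases apart on chromosome 9, and Col3a1 and Col5a2 are neighbours on chromosome 9.

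Between PND35 and PND50, averaged over the 4 treatments, the chains of collagen types I, III and V, Col4a1, Col12a1 and Col14a1 fell, and 3 membrane-spanning collagens rose. Of the 25 members, 9 fell and 3 rose at an adjusted p of 0.05 (limma, adjusted over all genes by Benjamini and Hochberg's method). Over all genes tested, 44.6% were called, 25.2% lower and 19.4% higher. The 12 calls among 25 are thus near the background share, and the members' direction and class are what the following values describe. The median log2 change was -0.16 over the fibrillar members, 0.02 over the 3 basement membrane members and 0.08 over the others, beside -0.01 over all genes. By class, 6 of 10 fibrillar members fell and 0 rose, 1 of 3 type IV chains fell, and of the 12 others 2 fell and 3 rose. Level ran alongside class. The members that fell all averaged 8.74 or more over the 16 pools, and the rest 8.02 or less, so class and level were not separated. The basement membrane median rests on Col4a3 and Col4a4, which averaged 6.91 and 6.86. A stricter filter, described in the last section, left Col4a1 alone in that class.

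**Figure D1:**
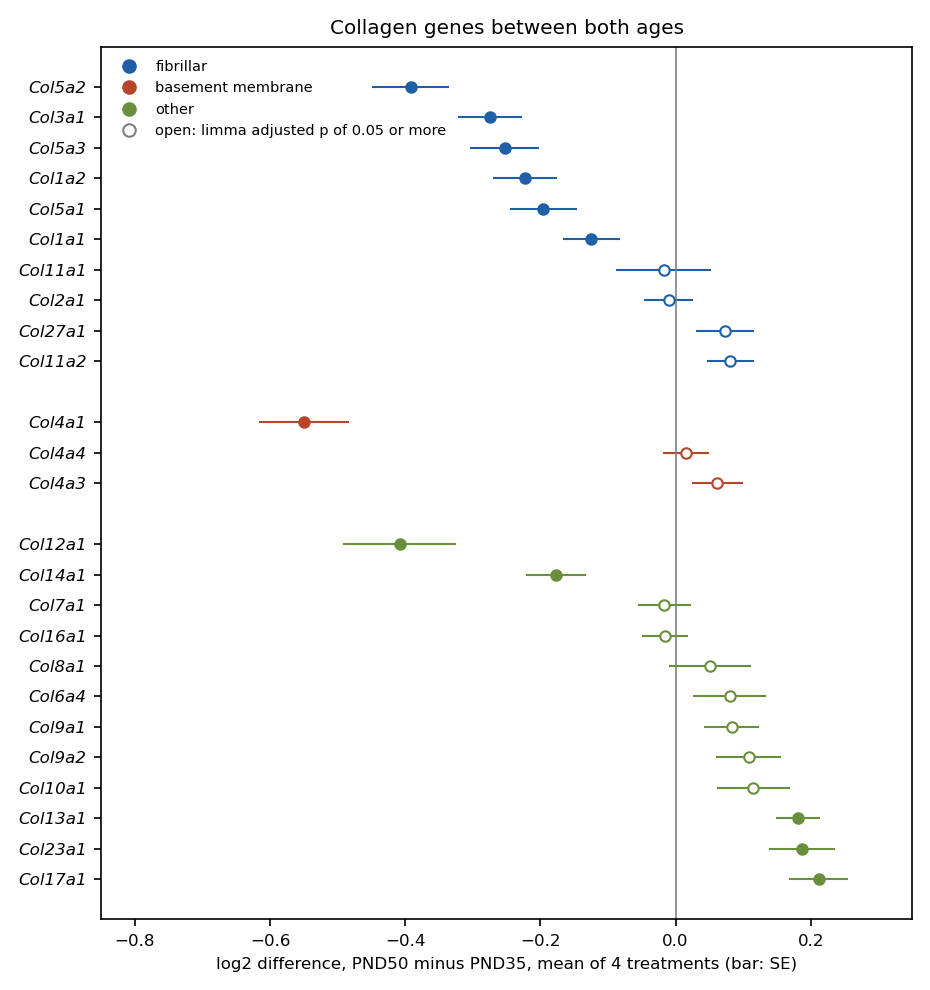
Log2 difference between PND50 and PND35, averaged over the 4 treatments (x axis), for the 25 collagen genes (y axis), by class. Points are limma estimates with bars of 1 SE, filled where the adjusted p was under 0.05. Col4a1 lay lowest at -0.55 and Col17a1 highest at 0.21.

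The fibrillar members that fell were those of types I, III and V. Type V collagen is a minor component that starts fibrils and limits their width, and its chain gene Col5a2 showed the largest fibrillar change. Over the 8 pools of PND35, Col5a2 ran from 9.58 through a median of 9.78 to 10.08, and over the 8 pools of PND50 from 9.27 through 9.42 to 9.67. The lowest pool at PND35 was vinclozolin replicate 2, which lay below genistein replicate 2 and vinclozolin replicate 1, the highest at PND50, so the ages overlapped. The difference was -0.39 (SE 0.06, limma adjusted p = 0.000433). The type III gene Col3a1, whose homotrimer mixes with type I in pliable tissue, ran from 11.45 to 11.84 with a median of 11.67 at PND35, and from 11.25 to 11.60 with a median of 11.39 at PND50. Here too the overlap came from vinclozolin replicate 2 at PND35 and from genistein replicate 2 and vinclozolin replicate 1 at PND50. Its difference was -0.27 (SE 0.05, limma adjusted p = 0.0011).

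The remaining type V chains and both type I chains moved the same way by less. Col5a3 ran from 8.50 to 9.09 at PND35 and from 8.54 to 8.85 at PND50, with medians of 8.89 and 8.58. It fell by 0.25 (SE 0.05), and Col5a1, whose medians were 9.18 and 8.94, fell by 0.20 (SE 0.05). Type I collagen, the main fibril protein, is a trimer of the chains of Col1a1 and Col1a2. Col1a2, whose promoter is shown above, had a median of 12.504 at PND35 (12.16 to 12.72) and of 12.24 at PND50 (12.14 to 12.502). It fell by 0.22 (SE 0.05, limma adjusted p = 0.0034). Col1a1 fell less, by 0.12 (SE 0.04, limma adjusted p = 0.033), from a median of 12.97 to 12.81. For each of these 6 genes the lowest of the 8 pools at PND35 was vinclozolin replicate 2. In 5 of the 6 the highest at PND35 was mixture replicate 2, and for Col5a3 it was mixture replicate 1.

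Fibrillar collagens best known from cartilage did not pass the test. Type II and type XI collagen form cartilage fibrils, and their genes gave -0.01 for Col2a1 (SE 0.04), -0.02 for Col11a1 (SE 0.07) and 0.08 for Col11a2 (SE 0.03, limma adjusted p = 0.072). Col27a1, a further fibrillar gene expressed in cartilage, gave 0.07 (SE 0.04, limma adjusted p = 0.18). The probe sets of these 4 genes had pool values between 6.98 and 8.20.

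Among the basement membrane chains, Col4a1 showed the largest change of any member. It encodes the chain that occurs with the Col4a2 chain in nearly all basement membranes. The 8 pools of PND35 ran from 9.16 through a median of 9.50 to 9.83 and those of PND50 from 8.72 through 8.96 to 9.27. Only 1 pool at each age crossed: vinclozolin replicate 2 at PND35 (9.16) lay below genistein replicate 2 at PND50 (9.27). The difference was -0.55 (SE 0.07, limma adjusted p = 0.00019), so that the level at PND35 was 1.46-fold that at PND50. Col4a3 and Col4a4, whose chains form the network of specialised membranes such as that of the kidney filter, gave 0.06 (SE 0.04) and 0.02 (SE 0.03), and neither passed. Their pools lay between 6.75 and 7.10 at both ages. Col4a2, which starts beside Col4a1, was not analysed here.

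Among the fibril-associated collagens, which bind the surface of fibrils, only the chains of higher value passed. Col12a1, found with type I fibrils in tendon, fascia and muscle coats, ran from 9.22 through 9.52 to 10.24 at PND35 and from 8.84 through 9.19 to 9.40 at PND50. It fell by 0.41 (SE 0.08, limma adjusted p = 0.0027), with mixture replicate 2 at PND35 highest of all. Col14a1, a related chain of soft connective tissue, had medians of 11.68 and 11.46 and fell by 0.18 (SE 0.04, limma adjusted p = 0.0082). Col9a1, Col9a2 and Col16a1 did not pass. Their changes were 0.08 (SE 0.04), 0.11 (SE 0.05, limma adjusted p = 0.09) and -0.02 (SE 0.03). They averaged 6.72, 6.85 and 7.47 over the 16 pools, beside 9.37 for Col12a1 and 11.55 for Col14a1.

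All 3 membrane-spanning collagens rose. Over the 16 pools Col13a1 averaged 6.93 and Col23a1 7.18, beside 7.09 for the median probe set. In the same comparison the cartilage and bone score ran from -0.11 to 0.06 at PND35 and from 0.004 to 0.11 at PND50. That list held Sgpp1 in place of Spp1. Whether probe sets of low value rose together was not tested. Col13a1 encodes a transmembrane collagen found at cell adhesions and at the neuromuscular junction. Its PND35 pools were 6.88 and 6.82 in control, 6.89 and 6.76 with genistein, 6.93 and 6.90 with vinclozolin, and 6.80 and 6.77 with the mixture. The PND50 pools were 6.999 and 7.02 in control, 6.97 and 7.09 with genistein, 7.09 and 7.06 with vinclozolin, and 7.02 and 6.96 with the mixture. Every PND50 pool lay above every PND35 pool, which held for 1 of the 25 members and, in either direction, for 5.76% of all genes. The difference was small, 0.18 (SE 0.03, limma adjusted p = 0.0014), or 1.13-fold.

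Col17a1 encodes the hemidesmosome collagen that ties basal epithelial cells to the basement membrane. It ran from 7.65 through 7.85 to 8.09 at PND35 and from 7.93 through 8.07 to 8.17 at PND50. It rose by 0.21 (SE 0.04, limma adjusted p = 0.0027). The genistein pools overlapped most, with 8.09 and 7.90 at PND35 and 7.95 and 7.93 at PND50. Col23a1, a further transmembrane collagen, rose by 0.19 (SE 0.05, limma adjusted p = 0.01), from a median of 7.07 to one of 7.28. In the same comparison 12 of 19 luminal epithelium markers rose and 1 fell, and 5 of 10 basal and myoepithelial markers rose and 1 fell. Of all genes 19.4% rose and 25.2% fell. The luminal score ran from -0.33 to 0.18 at PND35 and from 0.03 to 0.21 at PND50. The part of these markers in the result was not tested.

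No other member passed. Col7a1, the anchoring fibril gene of skin, gave -0.02 (SE 0.04). Col8a1 and Col10a1, short-chain network genes, the first of vessel walls and the second of hypertrophic cartilage, gave 0.05 (SE 0.06) and 0.12 (SE 0.05, limma adjusted p = 0.10). Col6a4, a type VI chain, gave 0.08 (SE 0.05). Its other 2 probe sets had pool values from 5.50 to 5.85 and from 4.80 to 5.22. The pool values of these 4 genes lay between 6.08 and 7.80.

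**Figure D2:**
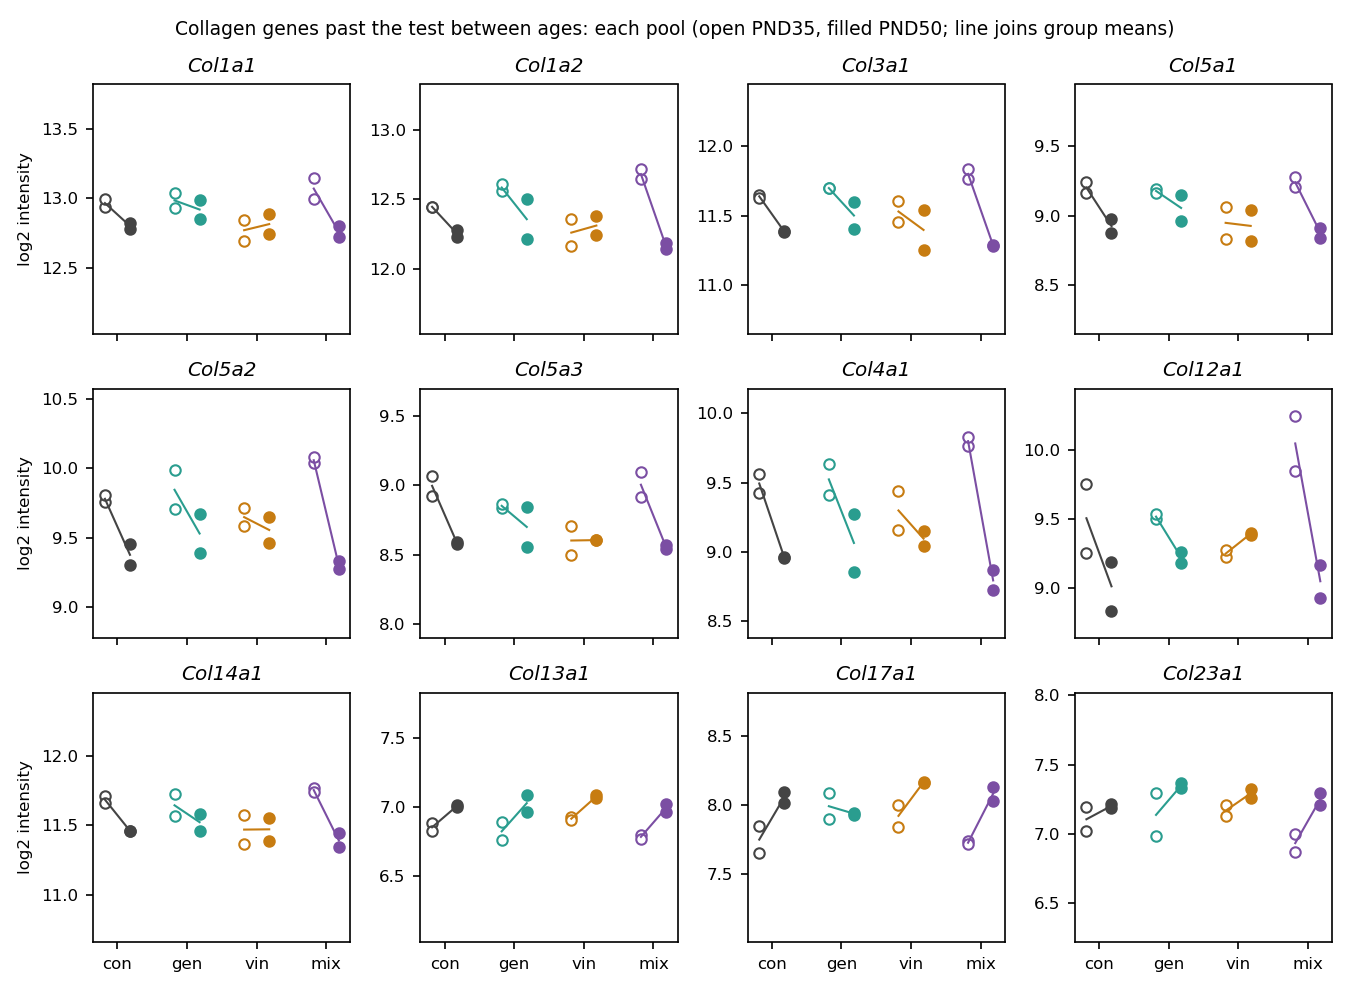
Log2 intensity (y axis) of each pool for the 12 collagen genes past the test, by treatment (x axis: control, genistein, vinclozolin, mixture). Open points are PND35, filled points PND50, and lines join group means. The mixture pools show the widest gap between ages for most of the falling genes, and the Col13a1 pools do not overlap.

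The age change was then taken within each treatment, in which each age has 2 pools. Called members were 12 in the mixture, where 9 fell and 3 rose, and these were the 12 genes called in the average. Of all genes 32.7% were called there, 18.3% lower and 14.4% higher. None was called in control (0 of 25, limma), genistein or vinclozolin, where 0.865%, 2.77% and 2.78% of all genes were. At an unadjusted p under 0.05 there were 9 members in control, 5 with genistein and 3 with vinclozolin, beside 18.3%, 23.3% and 19.9% of all genes. In the mixture Col4a1 fell by 1.00 (SE 0.13, limma adjusted p = 0.00069), from 9.77 and 9.83 to 8.87 and 8.72. Col12a1 fell by 0.99 (SE 0.17, limma adjusted p = 0.0019), from 9.85 and 10.24 to 8.93 and 9.17. Either gap was about 2.0-fold and wider than the distance between the pools of an age.

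Type V, I and III chains followed in the mixture. Col5a2 fell by 0.76 (SE 0.11), from 10.04 and 10.08 to 9.27 and 9.33. Col1a2 fell by 0.52 (SE 0.10), from 12.65 and 12.72 to 12.14 and 12.19, and Col3a1 by 0.51 (SE 0.10), from 11.76 and 11.84 to 11.29 and 11.28. The pools of these genes kept apart, as those of 19 of the 25 members did, beside 72.9% of all genes. The other members that fell were Col5a3 by 0.45, Col14a1 and Col5a1 by 0.36 each, and Col1a1 by 0.31. Col17a1 rose by 0.35 (SE 0.09, limma adjusted p = 0.011), Col23a1 by 0.32 (SE 0.10) and Col13a1 by 0.21 (SE 0.07, limma adjusted p = 0.032). Of the 12 calls in the mixture, 5 held with any 1 mixture pool left out, those of Col4a1, Col12a1, Col5a2, Col1a2 and Col3a1, and the other 7 did not. Col13a1 lost its call without each of the 4 mixture pools in turn, and also with quantile normalization, median centring or a fit on the mixture pools alone. Without mixture PND35 replicate 2, Col1a1, Col5a1, Col14a1, Col17a1 and Col23a1 were lost as well, which left 6 called. Without mixture PND50 replicate 2, Col1a1, Col5a1, Col5a3, Col17a1 and Col23a1 were lost, again leaving 6. Without mixture PND50 replicate 1, Col1a1, Col5a1, Col14a1 and Col23a1 were lost, and Col9a1 passed at 0.33. Without mixture PND35 replicate 1, Col5a3 and Col14a1 were lost, and Col11a1 passed at -0.42 and Col9a2 at 0.36.

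In control pools, which carry no exposure, the values closest to the threshold were those of Col5a3 and Col4a1. Col5a3 differed by -0.41 (SE 0.10, limma adjusted p = 0.081), with 8.93 and 9.07 at PND35 and 8.57 and 8.59 at PND50. Col4a1 differed by -0.53 (SE 0.13, limma adjusted p = 0.088), with 9.42 and 9.56 against 8.96 and 8.96, and Col5a2 by -0.40 (SE 0.11, limma adjusted p = 0.12). Col4a1 passed in control without genistein PND50 replicate 1 or without genistein PND50 replicate 2, which touches the shared spread only. Among the positive differences in control were Col17a1 at 0.31 (SE 0.09, limma adjusted p = 0.12), Col13a1 at 0.15 and Col10a1 at 0.12.

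With genistein Col4a1 differed by -0.46 (SE 0.13, limma adjusted p = 0.079) and passed without genistein PND50 replicate 2, at -0.67, but stood at -0.25 (limma adjusted p = 0.44) without genistein PND50 replicate 1. Col5a2 and Col1a2 gave -0.32 and -0.23, and Col13a1, Col4a3 and Col23a1 gave 0.20, 0.22 and 0.21. With 1 pool left out Col5a2 ran from -0.46 to -0.17, Col1a2 from -0.37 to -0.08 and Col23a1 from 0.06 to 0.37. Vinclozolin pools showed the smallest differences in the genes that fell in the mixture: Col4a1 gave -0.20 (SE 0.13, limma adjusted p = 0.43), Col3a1 -0.13, Col5a2 -0.09 and Col5a1 -0.02, while Col1a1, Col1a2, Col5a3, Col12a1 and Col14a1 lay between 0.00 and 0.14. The positive differences with the smallest p there were those of Col17a1 at 0.24, Col27a1 at 0.23 and Col13a1 at 0.16. Of these 6 values given for vinclozolin by smallest p, 4 (Col4a1, Col3a1, Col5a2 and Col17a1) moved by over 1.5 times or changed sign with 1 pool left out. Across the 4 treatments 4 members, Col4a1, Col3a1, Col5a1 and Col5a2, were lower at PND50 in each, as were 25.5% of all genes. Another 7 members, Col8a1, Col9a1, Col9a2, Col10a1, Col11a2, Col13a1 and Col23a1, were higher in each, beside 22.1% of all genes. The signs of the other 14 were mixed.

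**Figure D3:**
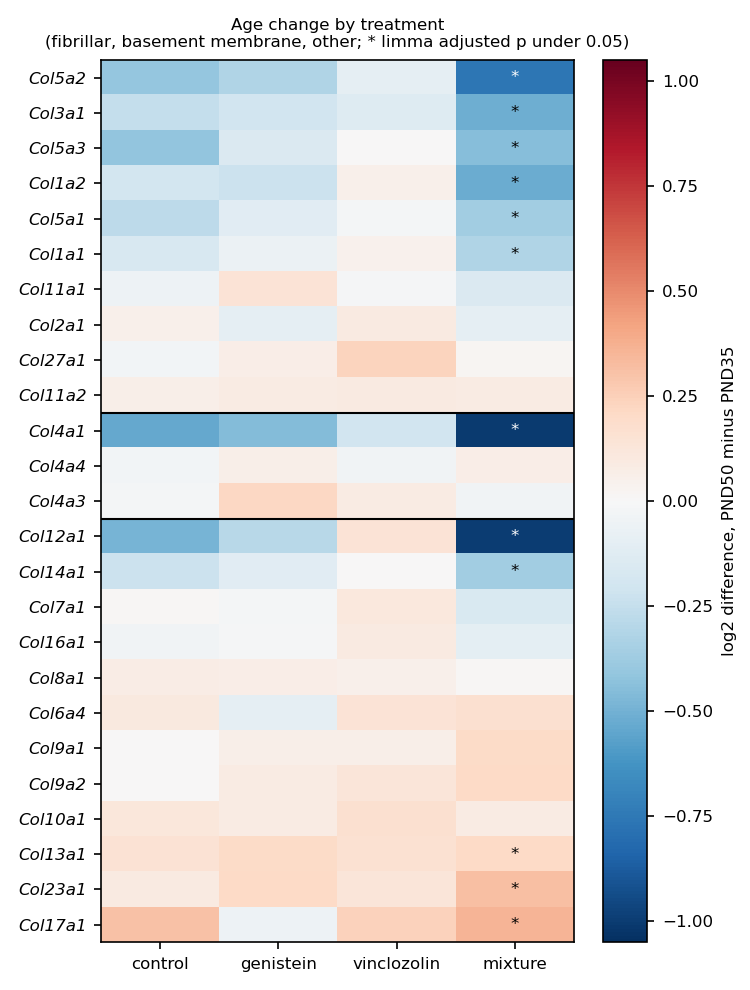
Log2 difference between PND50 and PND35 (colour, blue to red) for each collagen gene (rows, by class) in each treatment (columns), with an asterisk at a limma adjusted p under 0.05. The 12 asterisks stand in the mixture column only, and the vinclozolin column holds the palest values for the genes that fell in the mixture.

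Muscle markers moved with age in the same pools. Of the 17 skeletal muscle markers tested, 13 fell in the average with a median of -1.17, and 16 fell in the mixture with a median of -2.86. Of all genes 25.2% fell in the average and 18.3% in the mixture. Of 17 proliferation markers 15 fell in the average, as did 6 of 17 adipocyte markers, while among 14 fibroblast markers 4 rose and 2 fell. The fibroblast calls lay near the share of all genes called, 44.6%, and the adipocyte calls not far above the 25.2% called lower. All adipocyte markers tested except Lpl and Dgat2 nonetheless had a change below 0, beside 51.9% of all genes. The proliferation score ran from -0.22 to 0.61 at PND35 and from -0.73 to 0.17 at PND50, and the fibroblast score from -0.25 to 0.09 and from -0.06 to 0.10. The adipocyte score ran from -0.28 to 0.30 and from -0.29 to 0.10. Without both mixture PND35 pools, 6 members were called in the age average, namely Col4a1, Col5a2, Col3a1, Col5a3, Col13a1 and Col17a1, beside 20.7% of all genes. Col4a1 then stood at -0.40 (SE 0.08, limma adjusted p = 0.0092) and Col12a1 at -0.21 (SE 0.09, limma adjusted p = 0.11). Without both vinclozolin PND35 pools 12 members were called, beside 43.8% of all genes.

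With the muscle score of each pool as a covariate in limma, 0 of the 25 members were called, beside 1.92% of all genes, and 5 had an unadjusted p under 0.05, beside 20.8% of all genes. All 12 kept their sign: Col4a1 gave -0.40 (SE 0.11, limma adjusted p = 0.086), Col13a1 0.19 (SE 0.06, limma adjusted p = 0.12) and Col1a1 -0.03 (SE 0.07, limma adjusted p = 0.85). The muscle score itself differed between ages, with a median of 0.30 at PND35 and -0.77 at PND50. Covariate and age thus overlap, and the share of all genes called went from 44.6% to 1.92%. This fit cannot separate muscle from age. The part of muscle, proliferating and fat cells in the result was not tested. In the age average, unlike the mixture alone, leaving out 1 pool ended the call of Col1a1 only among the 12. Its call was lost without any 1 of control PND35 replicate 2, vinclozolin PND35 replicate 1, genistein PND35 replicate 2, mixture PND35 replicate 2, control PND50 replicate 1, control PND50 replicate 2, vinclozolin PND50 replicate 2, genistein PND50 replicate 1 and mixture PND50 replicate 1, with differences from -0.14 to -0.11 over all 16 leave-outs. Members that passed only with a pool left out were Col10a1 at 0.15 and Col11a2 at 0.10 without genistein PND35 replicate 1, Col11a2 at 0.10 without genistein PND50 replicate 1, Col9a1 at 0.12 without mixture PND50 replicate 1 and Col9a2 at 0.15 without mixture PND35 replicate 1.

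**Figure D4:**
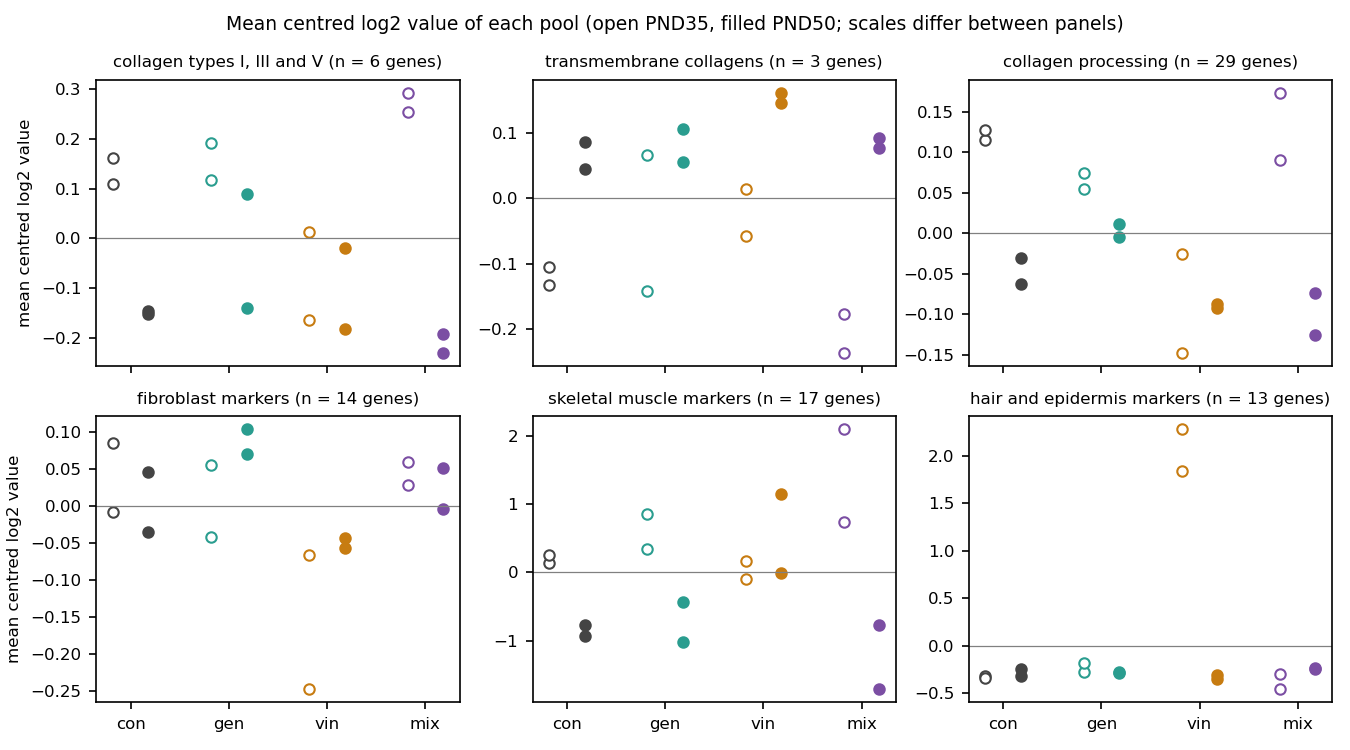
Mean centred log2 value (y axis) of each pool for groups of collagen genes and for marker lists, by treatment (x axis). Open points are PND35 and filled points PND50. Skeletal muscle is highest in mixture PND35 replicate 2 at 2.10, hair and epidermis in vinclozolin PND35 at 2.28 and 1.84.

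The genes that make, bind and degrade collagen were taken from lists of known partners. Processing genes modify, fold, export and crosslink the chains, and 16 of the 29 tested fell with age and 2 rose. Of all genes 25.2% were called lower and 19.4% higher. Plod2, a lysyl hydroxylase that prepares crosslinks, fell by 0.57 (SE 0.06). Fkbp14, a prolyl isomerase of the endoplasmic reticulum, fell by 0.38, the collagen chaperone Serpinh1 by 0.27 and the prolyl 3-hydroxylase P3h1 by 0.31. The 2 that rose, named after their values were seen, were Tll1, a procollagen C-proteinase, by 0.73 (SE 0.15), and Crtap, a partner of prolyl 3-hydroxylase, by 0.19. In the mixture 18 of the 29 fell and 1 rose, beside 18.3% and 14.4% of all genes. The median of the list was -0.15 in the average and -0.29 in the mixture, beside -0.01 and 0.00 for all genes.

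Matrix partners of the fibril did not move one way: of 24 tested, 7 rose and 7 fell. Over all genes 19.4% rose and 25.2% fell, and the counts of basement membrane partners and receptors below lie near those shares. The small leucine-rich proteoglycans Prelp and Bgn rose by 0.27 and 0.16, while the elastic fibre genes Eln and Efemp2 fell by 0.23 and 0.18. Among 13 basement membrane partners 3 rose and 2 fell. Agrn, a heparan sulfate proteoglycan, rose by 0.20 and the laminin chain gene Lamc1 fell by 0.22. Among 12 receptors 3 rose and 2 fell: Mrc2, which takes up collagen for breakdown, fell by 0.34, the integrin chain gene Itgb1 fell by 0.20, and Antxr1 and Lair1, a stromal and a leukocyte collagen receptor, rose by 0.25 and 0.36.

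Degradation genes gave 2 that rose and 5 that fell of 19, near or below the shares of all genes (19.4% and 25.2%). The gelatinase gene Mmp2 and the inhibitor gene Timp2 rose by 0.16 and 0.25, while Timp1, another inhibitor, fell by 0.37 and Fap, a protease of activated fibroblasts, by 0.25. On the transforming growth factor beta axis, which drives collagen transcription in fibroblasts, 6 of 15 genes rose and 3 fell, beside the same shares. The ligand gene Tgfb3 rose by 0.82 (SE 0.08, limma adjusted p = 9.28e-05), Tgfb2 and the latent binding protein gene Ltbp4 by 0.22 each, and the feedback inhibitor gene Smad7 fell by 0.24.

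Exposed pools were then compared with control pools of the same age. No member passed in any of the 6 comparisons (limma). The 3 exposures share the 2 control pools of an age, so the values below are not independent. Of the 54 values named in these comparisons and in the interactions, 37 moved by over 1.5 times or changed sign with 1 pool left out. At an unadjusted p under 0.05 the counts at PND35 were 1 member with genistein, 4 with vinclozolin and 4 with the mixture, beside 11.1%, 14.5% and 15.3% of all genes. The shares of all genes called were 0.0% with genistein, 1.34% with vinclozolin and 0.0% with the mixture.

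**Figure D5:**
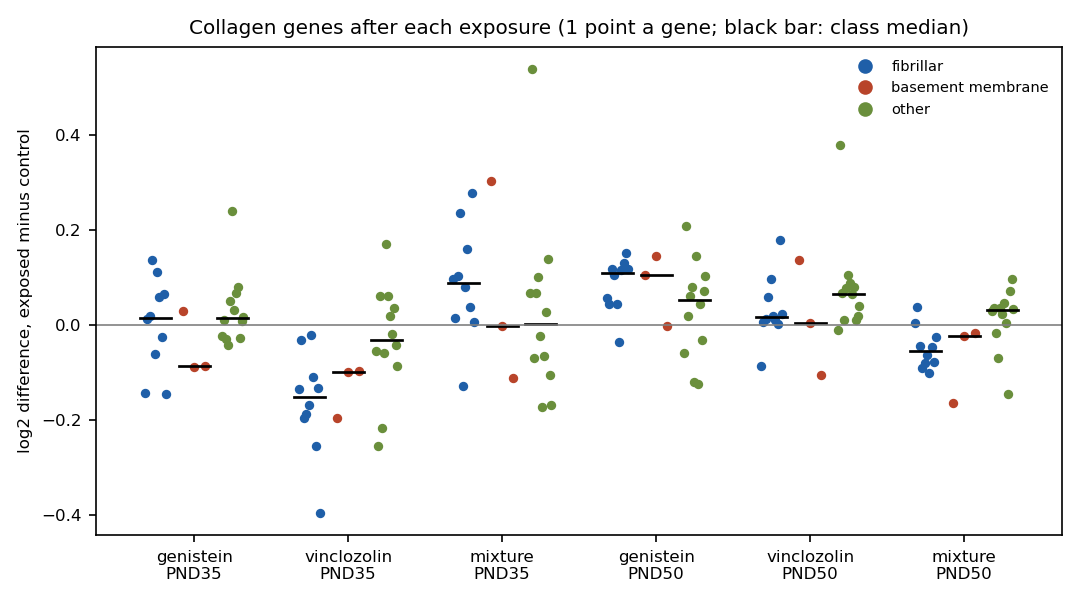
Log2 difference from control (y axis) for each of the 25 collagen genes, 1 point a gene coloured by class, in the 6 exposure comparisons (x axis), with black bars at class medians. The 10 fibrillar points with vinclozolin at PND35 all lie below 0, and no point in the plot passed the test.

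The vinclozolin pools at PND35 differed more from each other than those of any other group, with r = 0.9893 over all probe sets (0.9952 to 0.9966 elsewhere) and an SD of the difference of 0.30 (0.17 to 0.21 elsewhere). Of the 8 pools at PND35, replicate 2 was lowest in the fibroblast (-0.25), adipocyte (-0.28), endothelial (-0.25), macrophage (-0.29) and nerve sheath (-0.27) scores. With vinclozolin at PND35, 20 of 25 members were below control and 5 above, beside 56.3% of all genes below, and the 10 fibrillar members were all below, with a median of -0.15 beside -0.02 over all genes. For 8 of the 10 both vinclozolin pools lay below both control pools, as for 24.3% of all genes. Col5a3 stood lowest, with 8.70 and 8.50 against 8.93 and 9.07 in control. It differed by -0.39 (SE 0.10, limma adjusted p = 0.094). Without vinclozolin PND35 replicate 1 the difference was -0.50 and passed (limma adjusted p = 0.0275), and without replicate 2 it was -0.29 (limma adjusted p = 0.52). Col5a1 had 9.06 and 8.83 against 9.16 and 9.24, a difference of -0.25 (SE 0.10, limma adjusted p = 0.27). For Col14a1 the pools were 11.57 and 11.36 against 11.71 and 11.66, a difference of -0.22 (SE 0.09, limma adjusted p = 0.30). Without vinclozolin PND35 replicate 2 the values were -0.14 for Col5a1 and -0.11 for Col14a1, and without replicate 1 they were -0.37 and -0.32. In all 3 genes the pools kept apart, and replicate 2 of vinclozolin was the lower one. The highest differences were those of Col17a1 at 0.17 (SE 0.09), Col13a1 at 0.06 and Col23a1 at 0.06.

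Other lists stood apart in these pools too. Of 13 hair and epidermis markers 9 rose, and of 14 fibroblast markers 13 were below control with 0 past the test. Of all genes 0.966% were called higher and 0.373% lower, and 56.3% were below control. Of 29 processing genes 26 were below control, and Plod2 passed at -0.70 (SE 0.12, limma adjusted p = 0.018). Of 24 fibril partners 23 were below control, and the fibronectin gene Fn1 passed at -0.34 (SE 0.07, limma adjusted p = 0.049). The fibroblast score was -0.07 and -0.25 in the vinclozolin pools, beside -0.01 and 0.09 in control. The part of these markers in the collagen values was not tested.

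With the mixture at PND35, Col12a1 lay at 9.85 and 10.24 against 9.75 and 9.26 in control. The difference was 0.54 (SE 0.17, limma adjusted p = 0.20), and the lower mixture pool lay just above the higher control pool. It ran from 0.29 without control PND35 replicate 2 to 0.79 without control PND35 replicate 1. Col1a2 had 12.65 and 12.72 against 12.45 and 12.45, a difference of 0.24 (SE 0.10, limma adjusted p = 0.28). Col5a2 had 10.04 and 10.08 against 9.76 and 9.80, a difference of 0.28 (SE 0.11, limma adjusted p = 0.29). The fibrillar members were above control in 9 of 10, with a median of 0.09, beside 48.7% of all genes above. All 17 muscle markers were above control there, with 0 past the test and a median of 1.16, and their score was 0.73 and 2.10 against 0.13 and 0.26 in control. The part of muscle in these differences was not tested. Below control lay Col23a1 at -0.17, Col9a2 at -0.17 and Col4a4 at -0.11. With genistein at PND35, Col17a1 had 8.09 and 7.90 against 7.85 and 7.65, a difference of 0.24 (SE 0.09, limma adjusted p = 0.36). Col2a1 gave 0.11 and Col1a2 0.14, while Col5a3 gave -0.14, Col4a4 -0.09 and Col4a3 -0.09.

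At PND50 no member came near the threshold. The smallest limma adjusted p of a member was 1.0 with genistein, 0.80 with vinclozolin and 0.711 with the mixture, and 0, 1 and 0 members had an unadjusted p under 0.05, beside 2.6%, 6.04% and 7.41% of all genes. The shares of all genes called were 0.0%, 0.0% and 0.00848%. With vinclozolin, Col12a1 had 9.40 and 9.39 against 8.84 and 9.19 in control, a difference of 0.38 (SE 0.17). Leaving out control PND50 replicate 1 gave 0.20, and leaving out its replicate 2 gave 0.56. Col5a2 gave 0.18 and Col17a1 0.11, while Col4a4 gave -0.10, Col11a1 -0.09 and Col10a1 -0.01. With genistein, Col4a3 had 7.10 and 7.01 against 6.91 and 6.91, a difference of 0.15 (SE 0.08), and Col23a1 and Col1a1 gave 0.15 and 0.12. The lowest there were Col17a1 and Col6a4 at -0.12 each and Col10a1 at -0.06. With the mixture, Col7a1 had 7.56 and 7.46 against 7.61 and 7.70, a difference of -0.14 (SE 0.08), followed by Col4a1 at -0.16 and Col3a1 at -0.10, while Col9a1, Col8a1 and Col11a2 gave 0.10, 0.07 and 0.04.

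Whether an exposure changed the age difference was tested as an interaction, the exposed-minus-control difference at PND50 minus that at PND35. No member passed in any of the 3 (limma), beside 0.0% of all genes called with genistein, 0.381% with vinclozolin and 0.0% with the mixture. At an unadjusted p under 0.05 there were 1, 2 and 3 members, beside 7.68%, 6.71% and 12.2% of all genes. The mixture calls of the age change were therefore not shown to differ from control. For the mixture Col4a1 gave -0.47 (SE 0.19, limma adjusted p = 0.37), Col1a2 -0.32 and Col5a2 -0.35, with Col9a1, Col23a1 and Col9a2 at 0.20, 0.22 and 0.20. For vinclozolin Col5a3 gave 0.42 (SE 0.14, limma adjusted p = 0.59), Col12a1 0.63 (SE 0.24, limma adjusted p = 0.65) and Col27a1 0.27 (SE 0.12), and the 3 members below 0 were Col17a1, Col8a1 and Col4a4, at -0.06, -0.03 and -0.01. For genistein Col17a1 gave -0.36 (SE 0.12, limma adjusted p = 0.58), with Col2a1 and Col6a4 at -0.15 and -0.19 and Col4a3, Col5a3 and Col5a1 at 0.23, 0.26 and 0.16. The median standard error of an interaction over all genes was 0.133, against 0.0941 for an exposure at 1 age and 0.0471 for the age average.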

How the data were processed

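Total RNA of rat mammary gland was measured on 16 Affymetrix arrays, 2 pools of RNA from 5 animals for each of 8 groups, which were taken with the replicate numbers from the sample titles. The deposited table gives 1 value for each of 27342 probe sets, read as log2 intensity from its range (2.20 to 13.95). The log base, background correction, normalization and summarization were not stated in the sources used here. No further normalization was applied in the values reported, since array medians lay between 7.05 and 7.14. The platform annotation listed 15420 probe sets, 15097 with 1 symbol and 323 with several, and left the other 11922 of the 27342 unnamed. Of those with 1 symbol, 15067 matched RefSeq (GRCr8) by gene identifier. Genes with a mean under the 25th percentile were left out. Tests used limma 3.58.1 in R 4.3.3 (lmFit on 1 mean per group over all arrays, eBayes, 8 residual degrees of freedom, two-sided, Benjamini and Hochberg adjustment over 11796 genes, threshold 0.05), and were tested on simulated data. Lists were described by counts and medians. Deviations of pools of the same number correlated from -0.37 to 0.30 over 28 pairs of groups, with a median of 0.035, and pools were not paired. With 1 such deviation a group, this cannot show whether pools of the same number shared a batch, which was not stated. The members, classes and lists were chosen with earlier results of these data known. All members past the threshold were named, at most 10 in each direction, and otherwise the 3 with the smallest p in a direction. At most 4 genes of a partner list were named per comparison, with Tll1 and Crtap added after their values were seen. Alternatives changed the filter, normalization, probe set rule, block, array weights, variance model, threshold, arrays in the fit and pools left out. Figures used matplotlib 3.10.9 in Python 3.11.15. Protein sequences were not used here.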

Additional observations from a re-analysis of the deposited data

How the results depend on the processing

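Counts of called collagens kept within 1.5 times the reported one under most alternatives. In most comparisons the reported count was 0, and a count that stayed at 0 was taken as kept. In the age average the count was 6 without both mixture PND35 pools and 0 with the skeletal muscle score as a covariate, against 12; leaving out 1 pool gave 11 to 14. The replicate number as a block gave 12 in the average and 12 in the mixture and changed no other call. In control it was 2 with array weights, 1 with only the groups of the comparison, 2 at an adjusted p under 0.1 and 0 to 1 with 1 pool left out, against 0. In genistein it was 1 at an adjusted p under 0.1 and 0 to 1 with 1 pool left out. In the mixture it was 6 at an adjusted p under 0.01 and 6 to 12 with 1 pool left out. With vinclozolin at PND35 it was 1 at an adjusted p under 0.1 and 0 to 1 with 1 pool left out. The filter at the 50th percentile (7.09) left out Col4a3 and Col4a4, with means of 6.91 and 6.86. The basement membrane median was then the -0.55 of Col4a1 alone. That filter also left out Col6a4, Col8a1, Col9a1, Col9a2, Col10a1 and Col13a1, and the other median was -0.016.

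Signs turned only in comparisons in which the member had not passed, also for some members that passed in the age average. In the age average, leaving out both mixture PND35 pools gave 0.026 for Col11a1, 0.014 for Col16a1, 0.017 for Col2a1, -0.002 for Col4a4 and 0.033 for Col7a1. The muscle score as a covariate gave 0.11 for Col11a1, -0.015 for Col4a4, 0.029 for Col7a1 and -0.007 for Col9a1. Quantile normalization gave 0.026 for Col2a1, -0.012 for Col4a4, 0.001 for Col7a1 and -0.005 for Col8a1, and median centring gave -0.001 for Col4a4. Leaving out 1 pool gave -0.084 to 0.049 for Col11a1, -0.036 to 0.015 for Col2a1, -0.003 to 0.033 for Col4a4 and -0.039 to 0.006 for Col7a1. In vinclozolin it gave -0.278 to 0.013 for Col3a1 and -0.189 to 0.004 for Col5a2 between ages, and -0.026 to 0.15 for Col23a1 against control at PND35. At PND50 it gave -0.157 to 0.039 for Col10a1 with genistein and -0.107 to 0.089 with vinclozolin, where quantile normalization gave 0.005 and median centring 0.004. With the mixture it gave -0.031 to 0.226 for Col9a1 and -0.026 to 0.171 for Col8a1. In the vinclozolin interaction it gave -0.164 to 0.035 for Col17a1, -0.152 to 0.1 for Col8a1 and -0.08 to 0.066 for Col4a4, where quantile normalization gave 0.008 and median centring 0.006. The causes were not tested. Signal over background was not given, and probe sets of low value were read by that value alone.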
